A study of Mus musculus with 44 samples.

Results

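The comparison described here is that of the dorsal hippocampus of naive Kdm5b mutant mice with that of naive wild-type (WT) mice, across all genes counted. The members are the libraries of the second sequencing cohort labelled Baseline (0 h), 6 with genotype Kdm5bDARID/DARID and 6 with genotype Wild-type, 12 of the 44 samples of the series. Each group held 3 males and 3 females, and each library came from 1 mouse that was kept in its home cage and not tested. Both genotypes were F2 mice of a cross between 2 strains, into which C57BL/6J grandsires brought the mutant allele and 129S2/Sv granddams the WT allele. The groups therefore shared a mixed background, and each mouse carried its own combination of the parental chromosomes. The mice were 7 to 8 weeks old, and the deletion was present in every cell from conception. Mice of the same genotypes taken 1 h or 3 h after contextual fear conditioning (6 per genotype and time) are other animals. They served here to remeasure genes named at 0 h, to supply genes on which the naive libraries were placed, and for side-by-side values of gene lists and chromosomes. The samples of the first cohort were not analysed here.

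KDM5B belongs to the KDM5 family of histone demethylases, which remove methyl groups from lysine 4 of histone H3. Trimethylation of this lysine (H3K4me3) marks the promoters of active genes, and loss-of-function variants of KDM5B are associated with intellectual disability. The mutant allele, ΔARID, lacks exons 2 to 4, which encode part of the JmjN domain and the DNA-binding ARID domain, and the demethylase activity of the protein is disrupted. It is therefore a short form of the protein and not a null allele. The comparison asks which transcripts differed in the hippocampus of these mice before any training.

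Total counts per library ran from 40274435 to 69151754 in WT and from 60596402 to 78675309 in mutants, and the sex transcripts of all 12 libraries matched their labels. Levels are given as CPM (counts-per-million) after scaling of library sizes. Differences are log2 fold changes, mutant minus WT, each with its standard error (SE). Genes were tested with edgeR, and a gene was called at a Benjamini-Hochberg adjusted p under 0.05. Dorsal hippocampus holds many cell types, and fewer cells of a type cannot be told apart from less RNA per cell.

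In this comparison 0 of 17336 genes tested were called (0%). An unadjusted p under 0.05 was found for 1066 genes, 6.15% of those tested. Of all genes tested, 575 were higher in mutants by this measure (3.32%) and 2.83% were lower. The differences were small, with a median absolute log2 fold change of 0.069 and a median SE of 0.090. All 6 mutants lay above every WT library for 24 genes (0.138%) and below every WT library for another 24 (0.138%). DESeq2 on the same libraries with sex as a covariate called 16 genes. None of the differences given below passed the edgeR threshold with all 12 libraries, and they are described by their values and by their repeat in other mice.

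Before single genes are described, 2 features of the libraries have to be stated. The first concerns the libraries labelled male 1 of both genotypes. In the mice taken at 1 h and 3 h, 52 genes were called between genotypes once 1 library at each time, whose sex transcripts contradicted its label, had been left out. These were the libraries labelled WT 1 h male 1 and mutant 3 h female 2. On genes chosen at 0 h (edgeR adjusted p under 0.1 without the libraries labelled male 1) they also stood with the other genotype, at median positions of 1.17 and 0.06 on a scale from 0 for WT to 1 for mutants, so 1 h and 3 h values with all libraries include a library that goes against its label. Of the 52 genes 46 were higher in mutants. All 52 had the same direction at 0 h, and 27 of them (51.9%) had an unadjusted p under 0.05 there.

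On these genes each naive library was placed on a scale where 0 is the mean of WT and 1 the mean of mutants, both taken without the libraries labelled male 1 and without the library being placed. The library labelled WT male 1 had a median position of 0.867, and 39 of its 50 placed genes lay nearer to the mutant mean. The other WT libraries lay between -0.187 and 0.163. The library labelled mutant male 1 had a median position of 0.156, with 11 of 50 genes nearer to the mutant mean, while the other mutants lay between 0.946 and 1.16. Thus each of these male libraries stood with the other genotype on genes picked in other mice.

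The level of Kdm5b did not separate these libraries, at 82.5 CPM in the library labelled WT male 1 (the lowest of WT) and 82.7 CPM in the library labelled mutant male 1. The highest mutant level was in female 2 (86.6 CPM), which stood with the mutants on the other genes. Whether tubes, labels or animals were exchanged was not tested. Both libraries stayed in the groups of their labels, and results are also given without them. Because they were singled out after the data had been seen, values without them are a description.

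**Figure D1:**
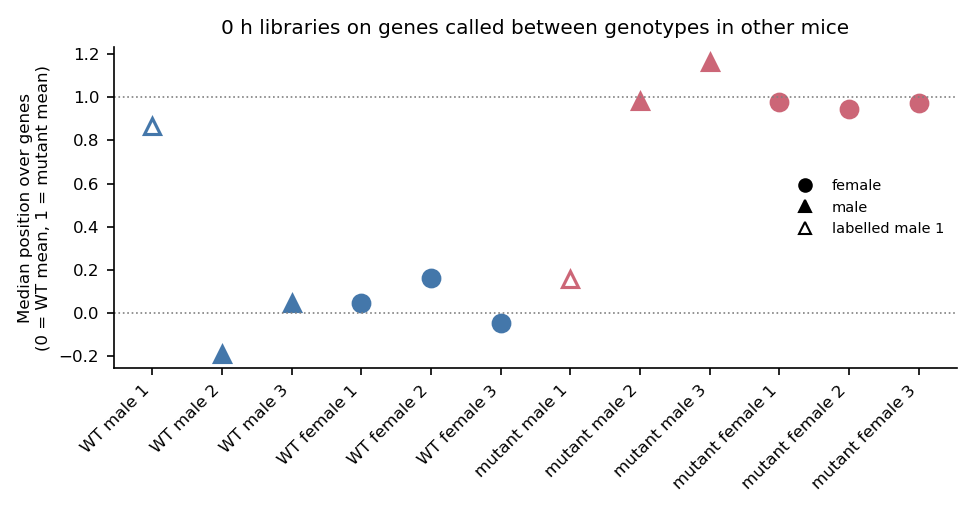
Median position of each naive library (vertical axis, 0 is the WT mean and 1 the mutant mean, no unit) on the genes called between genotypes in other mice at 1 h or 3 h. The libraries labelled WT male 1 (0.867) and mutant male 1 (0.156) sit with the other genotype, and the other 10 libraries sit with their own.

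Without the libraries labelled male 1, 3 of 17327 genes were called (0.0173%) and 1520 had an unadjusted p under 0.05 (8.77%). All 3 were higher in mutants. They were Tnxb, which encodes the extracellular matrix protein tenascin X (log2 fold change 0.82, SE 0.08, edgeR adjusted p 0.00305), the uncharacterised gene 1700048O20Rik (0.86, SE 0.09, edgeR adjusted p 0.00704), and Stat6, a transcription factor activated by interleukin signalling (0.64, SE 0.08, edgeR adjusted p 0.0447). DESeq2 called 170 genes without the pair, 102 higher and 68 lower, and 34 of them were among the genes called in other mice.

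The second feature is a set of transcripts that were high in 3 of the 6 mutants, the libraries labelled male 1, male 3 and female 2. Zic1, a zinc finger transcription factor of the septum, thalamus and cerebellum, was at 82.6, 81.2 and 74.2 CPM in them. In the other 9 libraries it ran from 7.53 to 25.1 CPM, with the highest of these values in WT female 2. Across the 12 libraries 35 genes had a correlation above 0.9 with Zic1, among them Zic2 and Zic4. A difference between genotypes in such genes largely follows from how they were picked, since Zic1 is high in mutants only. Many of the results that rest on these libraries are also given without them.

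The allele was described first. Kdm5b (gene 75605, chr1:134560178-134632878, GRCm38) was at 82.5, 87.4 and 89.7 CPM in WT (lowest, median and highest) and at 76.0, 80.4 and 86.6 CPM in mutants. The groups overlapped, with 4 mutants below every WT library. Mutant minus WT was -0.11 on the log2 scale (SE 0.04, edgeR adjusted p 0.76), and the 2-sided exact permutation test of this single gene over the libraries gave p = 0.0152. Without the libraries labelled male 1 it was -0.13 (SE 0.04, edgeR adjusted p 0.42).

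The deleted exons lie on the plus strand of chromosome 1, at chr1:134585154-134585231 (exon 2), chr1:134587922-134588044 (exon 3) and chr1:134588777-134588947 (exon 4) in GRCm38. They are shown because they are the sequence that separates the alleles. They are read 5′ to 3′ from transcript Kdm5b-201 of GENCODE M21, and no base is marked by capitals.
Exon 2: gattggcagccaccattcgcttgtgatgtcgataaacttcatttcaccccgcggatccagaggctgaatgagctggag
Exon 3: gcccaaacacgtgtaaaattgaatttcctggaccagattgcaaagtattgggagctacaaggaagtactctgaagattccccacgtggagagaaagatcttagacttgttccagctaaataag
Exon 4: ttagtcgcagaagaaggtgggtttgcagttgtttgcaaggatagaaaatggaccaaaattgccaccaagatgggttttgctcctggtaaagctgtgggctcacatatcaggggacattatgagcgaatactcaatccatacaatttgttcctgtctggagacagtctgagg

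These exons hold 372 of the 8714 bases of the transcript (4.27%), all of them coding, which is 124 codons. If reads fell evenly along the transcript, the loss of these bases alone would change the count of the gene by -0.06 on the log2 scale. The files hold counts per gene and not per exon, so transcripts with and without the exons could not be separated, and the deletion itself could not be read in any library.

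The other members of the family stayed near their WT level. Kdm5a, which acts on the same mark, ran from 65.5 to 74.9 CPM in WT, compared with 67.7 to 73.4 CPM in mutants (log2 fold change 0.01, SE 0.04). The X-linked Kdm5c ran from 71.7 to 93.1 CPM in WT, compared with 66.9 to 93.8 CPM in mutants (-0.07, SE 0.05). Its Y-linked copy Kdm5d was measured in the 3 males of each genotype only, at 28.4 to 32.1 CPM in WT, compared with 27.4 to 35.9 CPM in mutants. Jarid2, a relative without demethylase activity that acts with Polycomb complexes, had a log2 fold change of -0.06 (SE 0.04). All 4 ranges overlapped between genotypes. Of 20 genes of the H3K4 methyltransferase complexes, which write the mark, 1 was higher with an unadjusted p under 0.05 (Kmt2b, 0.13, SE 0.05) and 0 were lower. Of 20 other histone demethylases, 1 was higher and 1 was lower by this measure, and of 14 genes of the NuRD complex, a repressor complex, 0 were either.

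Among single genes, the smallest adjusted p belonged to Asic4 and Bex1. Asic4 (gene 241118, chr1:75450510-75474340) encodes a member of the acid-sensing ion channel family. It was at 3.5, 4.28 and 7.21 CPM in WT (lowest, median and highest) and at 5.45, 9.21 and 16.1 CPM in mutants. All 6 mutants were above the WT median, 4 were above every WT library, and the lowest mutant was the library labelled male 1. Females of the mutant group were the highest of all, at 10.9, 13 and 16.1 CPM. Mutant minus WT was 0.95 on the log2 scale (SE 0.16, edgeR adjusted p 0.268), and 1.06 without the libraries labelled male 1 (SE 0.16, edgeR adjusted p 0.0588).

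Asic4 was higher in mutants in the other mice as well. At 1 h the log2 fold change was 1.32, and 1.20 at 3 h. Without the library of discordant sex these values were 1.96 (edgeR adjusted p 8.9e-05) and 1.37 (edgeR adjusted p 0.091). Of the 6 genes tested in the list of acid-sensing and epithelial sodium channels, Asic4 was at 0 h the only member with an unadjusted p under 0.05. At 1 h 2 members were higher by this measure, and at 3 h 1 was higher and 1 lower.

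Bex1 (gene 19716, chrX:136213972-136215513), a small brain-expressed adaptor protein of the X chromosome, was at 27.8, 28.4 and 35.5 CPM in WT, compared with 34.9, 40.3 and 48.6 CPM in mutants. The ranges overlapped only through WT male 3, the highest WT library, which lay above the lowest mutant, female 2. Mutant minus WT was 0.45 on the log2 scale (SE 0.07, edgeR adjusted p 0.268). It was 0.34 at 1 h and 0.23 at 3 h, and without the library of discordant sex 0.41 at 1 h (edgeR adjusted p 0.046) and 0.24 at 3 h (edgeR adjusted p 0.54). Bex1 shares exon sequence with Tceal7 on the opposite strand, and the strand setting of the counting was not given in the sources used here.

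The Bex and Tceal genes, a cluster of related X-linked genes, were as a list higher more often than lower. Of 11 tested, 9 were higher and 4 of them had an unadjusted p under 0.05, against 3.32% of all genes in that direction, and the median log2 fold change was 0.08. The list was chosen with earlier results known and holds Bex1, so this count includes a gene picked for its small p. Without the libraries labelled male 1, 7 of 11 were higher, 4 of them with an unadjusted p under 0.05, and the median was 0.04. The 4 were with all libraries Bex1, Bex2 (0.20, SE 0.05), Tceal8 (0.17, SE 0.07) and Bex4 (0.28, SE 0.12). Bex2 ran from 152.4 to 166.4 CPM in WT, compared with 159.3 to 202.9 CPM in mutants, with 5 mutants above every WT library. Without the 3 libraries high in Zic1, Bex4 was at 0.04, and Bex1, Bex2 and Tceal8 were at 0.49, 0.20 and 0.25. At 1 h all 11 were higher, and at 3 h 7 of 11.

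Below these genes, the others of the 20 with the smallest p had an edgeR adjusted p of 0.707 each, and 12 of the 20 were higher in mutants. They are described by function.

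Regulators of growth and neural differentiation were found in both directions. Id4, an inhibitor of basic helix-loop-helix transcription factors that is expressed in astrocytes and neural stem cells, was at 34.1, 42.6 and 46.6 CPM in WT, compared with 46.9, 62.0 and 71.8 CPM in mutants. All mutants were above every WT library, although the lowest mutant and the highest WT library nearly met. The log2 fold change was 0.55 (SE 0.11), with 0.31 at 1 h and 0.45 at 3 h, and 0.36 at 1 h without the discordant library (edgeR adjusted p 0.0254) and 0.37 at 3 h (edgeR adjusted p 0.492). The 3 highest Id4 levels were in the libraries high in Zic1, and without these the difference was 0.35. Lin28b, a regulator of let-7 microRNAs, was higher by 0.90 (SE 0.21), at 1.12 to 1.83 CPM in WT, compared with 1.67 to 4.29 CPM in mutants. Its 3 highest levels were in the same libraries, and without them the difference was 0.56. It was 0.26 at 1 h and 0.68 at 3 h. Minar2, a regulator of Notch signalling, was higher by 0.38 (SE 0.08), at 24.5 to 35.0 CPM in WT, compared with 33.1 to 42.4 CPM in mutants. Only the library labelled mutant male 1 lay within the WT range of Minar2, and the difference was 0.25 at 1 h and 0.24 at 3 h.

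Tgfb2, a transforming growth factor on chromosome 1, was lower. It was at 64.5, 79.1 and 94.5 CPM in WT, compared with 57.1, 64.7 and 70.8 CPM in mutants (log2 fold change -0.31, SE 0.07). Of the mutants 3 were below every WT library and 3 were within the WT range. Tgfb2 was also lower at 1 h (-0.41) and 3 h (-0.29). Of the 45 genes in the list of Id, BMP and Notch genes, 4 were higher with an unadjusted p under 0.05, against 3.32% of all genes, and 0 were lower. Both without the libraries labelled male 1 and without the 3 libraries high in Zic1 the counts were 3 higher and 2 lower, and in the first case 22 of 45 were higher and the median was -0.002.

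Transporters and metabolic enzymes included Slc7a3, a transporter of arginine and lysine, and Aox4, an aldehyde oxidase. Slc7a3 was at 2.81, 3.39 and 4.52 CPM in WT, compared with 4.33, 6.93 and 8.84 CPM in mutants, with 5 mutants above every WT library and the library labelled mutant male 1 within the WT range. The log2 fold change was 0.87 (SE 0.19), with 0.85 at 1 h and 0.68 at 3 h. It was 1.21 without the 3 libraries high in Zic1, and was then called (edgeR adjusted p 0.0384). Aox4 was at 1.97, 2.54 and 5.26 CPM in WT, compared with 0.55, 1.26 and 2.19 CPM in mutants (-1.41, SE 0.31), with 5 mutants below every WT library and -1.38 at 1 h and -0.66 at 3 h. Of 24 amino acid transporters tested, 1 was higher and 1 was lower with an unadjusted p under 0.05. The second was Slc7a10 (-0.19, SE 0.08), a transporter of astrocytes.

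Receptor tyrosine phosphatases differed in both directions. Ptprk, which acts in cell adhesion, was at 58.1, 63.5 and 66.1 CPM in WT, compared with 48.8, 53.7 and 58.1 CPM in mutants, where the highest mutant fell just short of the lowest WT library (log2 fold change -0.23, SE 0.05). Ptprh was at 0.088, 0.249 and 0.518 CPM in WT, compared with 0.778, 0.955 and 1.13 CPM in mutants, with a clear gap between the groups (1.72, SE 0.37). The differences were smaller in the other mice, where Ptprk was at -0.01 and -0.11 and Ptprh at 0.53 and 0.31 at 1 h and 3 h. Of the 21 genes of the list, 2 were higher and 2 were lower with an unadjusted p under 0.05.

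Other genes of the 20 act in RNA and protein assembly. Gemin4, a component of the SMN complex that assembles spliceosomal particles, was at 16.9, 18.2 and 18.7 CPM in WT, compared with 19.8, 21.3 and 21.9 CPM in mutants (0.23, SE 0.05). All mutants were above every WT library, yet the difference was 0.03 at 1 h and 0.06 at 3 h. Gemin4 shares exon sequence with Glod4 on the same strand. Tprkb, a subunit of the complex that modifies transfer RNA, was higher by 0.27 (SE 0.06), and it was at 0.09 at 1 h and 0.28 at 3 h, where it was called without the discordant library (0.31, edgeR adjusted p 0.0327). Emc6, a subunit of a membrane protein insertase, was lower (-0.22, SE 0.05), as were Tsr2, a chaperone of ribosomal protein loading (-0.17, SE 0.04), and Uchl5, a deubiquitinase of the proteasome (-0.22, SE 0.05). In Tsr2 and Uchl5 all mutants were below every WT library. In the other mice these differences were smaller, at 0.00, -0.05 and 0.01 for Emc6, Tsr2 and Uchl5 at 1 h and -0.13, -0.11 and -0.13 at 3 h.

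The remaining genes of the 20 were 1700048O20Rik, Gm10451, Hjv and Ndufc1. 1700048O20Rik was at 5.47, 6.96 and 8.17 CPM in WT, compared with 7.25, 11.7 and 14.0 CPM in mutants (0.71, SE 0.14, with 0.35 at 1 h and 0.43 at 3 h), and again only the library labelled mutant male 1 was within the WT range. Hjv, a coreceptor of iron homeostasis, was near the limit of detection, at 0.092 to 0.247 CPM in WT, compared with 0.274 to 0.551 CPM in mutants (1.38, SE 0.32), and at 3 h it was at 0.67. Gm10451 was at 0.175 to 0.287 CPM in WT, compared with 0.209 to 1.05 CPM in mutants (1.53, SE 0.34), with 0.72 at 1 h and 0.70 at 3 h. Ndufc1 is described with the respiratory chain.

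**Figure D2:**
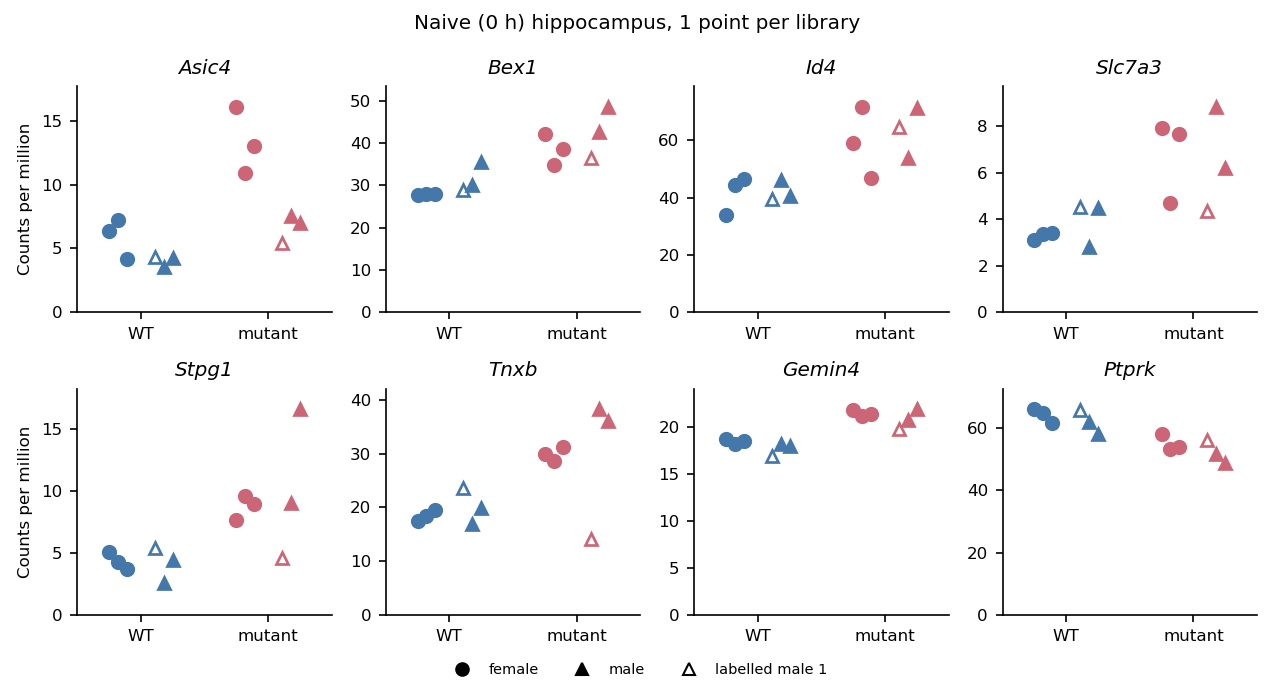
Levels of 8 genes (vertical axes, CPM, starting at 0) in the 12 naive libraries, 1 point per library, circles for females and triangles for males, with open triangles for the libraries labelled male 1. The mutants lie above WT for Id4 and Gemin4 and below for Ptprk without overlap, and for Tnxb the open mutant triangle (14.2 CPM) lies below every WT point.

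Of the 20 genes with the smallest p at 0 h, 19 were tested at both later times, and 16 of these (84.2%) had the same direction at 0, 1 and 3 h. Among all 17032 genes tested at the 3 times the share was 39.5%. For the 50 genes with the smallest p the share was 83.3%, for 100 genes 79.4% and for 200 genes 75.5%. The same direction together with an unadjusted p under 0.05 at both 1 h and 3 h was found for 6 of the 19, and for 0.81% of all genes. The 6 were Asic4, Bex1, Id4, Minar2, Slc7a3 and Tprkb. The mice of the 3 times are different animals and share no controls, but they share the cross.

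An unadjusted p under 0.05 in the same direction at all 3 times was found for 64 genes, of which 50 were higher and 14 lower in mutants. Besides those given above they include Nucb1, a calcium-binding protein of the Golgi (-0.20, SE 0.05), and Tmem37, a calcium channel subunit relative (-1.14, SE 0.35, and -1.75 without the 3 libraries high in Zic1). In Nucb1 all 6 naive mutants were below every WT library. They also include Ednrb, the endothelin B receptor of astrocytes (0.25, SE 0.07). These and the genes of the next paragraphs, apart from Tmem37, Stpg1 and Tfcp2l1, were picked after their values had been seen.

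Genes called in the other mice allow the naive mice to be read on a list that was not picked on them. Stpg1 and Wdr95 are examples with large differences at 0 h. Stpg1, a sperm tail protein gene that shares exon sequence with Nipal3, was at 2.57, 4.31 and 5.37 CPM in WT, compared with 4.58, 8.95 and 16.6 CPM in mutants (1.14, SE 0.27). Wdr95, a WD repeat gene, was at 0.322, 0.832 and 1.09 CPM in WT, compared with 0.731, 1.95 and 2.52 CPM in mutants (1.24, SE 0.31). In each gene 5 mutants were above every WT library and the library labelled mutant male 1 was within the WT range. Without the discordant libraries Wdr95 was higher by 1.55 at 1 h (edgeR adjusted p 0.00311) and by 1.55 at 3 h (edgeR adjusted p 0.0327), close to the naive value without the libraries labelled male 1, which was 1.51.

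Cnn2, an actin-binding calponin, was at 3.62, 5.02 and 6.51 CPM in WT, compared with 6.56, 6.86 and 8.19 CPM in mutants, without overlap (0.54, SE 0.14). It was higher by 0.98 at 1 h without the discordant library (edgeR adjusted p 0.00173) and by 0.51 at 3 h (edgeR adjusted p 0.144), where it was not called. Tnxb was at 16.9, 18.9 and 23.5 CPM in WT, compared with 14.2, 30.6 and 38.3 CPM in mutants (0.63, SE 0.20). Its highest WT value and its lowest mutant value were those of the libraries labelled male 1, and the other 5 mutants lay at or above 28.7 CPM. Without the discordant libraries Tnxb was higher by 0.69 at 1 h (edgeR adjusted p 0.047) and by 0.82 at 3 h (edgeR adjusted p 0.0288).

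The list also holds transcription factors. Eya1, a coactivator with phosphatase activity on chromosome 1, ran from 17.0 to 27.3 CPM in WT, compared with 20.4 to 32.2 CPM in mutants (0.38, SE 0.12), and the difference was 0.53 (SE 0.08, edgeR adjusted p 0.0559) without the libraries labelled male 1. Stat6, which overlaps Nab2, ran from 8.74 to 15.2 CPM in WT, compared with 10.8 to 16.9 CPM in mutants (0.44, SE 0.14). Tfcp2l1, a CP2 family transcription factor on chromosome 1, was at 3.98, 6.58 and 8.39 CPM in WT, compared with 6.42, 10.2 and 12.7 CPM in mutants (0.65, SE 0.19). Among enzymes, Hsd11b1, which regenerates active glucocorticoid in cells, was higher by 0.38 (SE 0.10), and D2hgdh, a mitochondrial dehydrogenase, by 0.58 (SE 0.28).

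**Figure D3:**
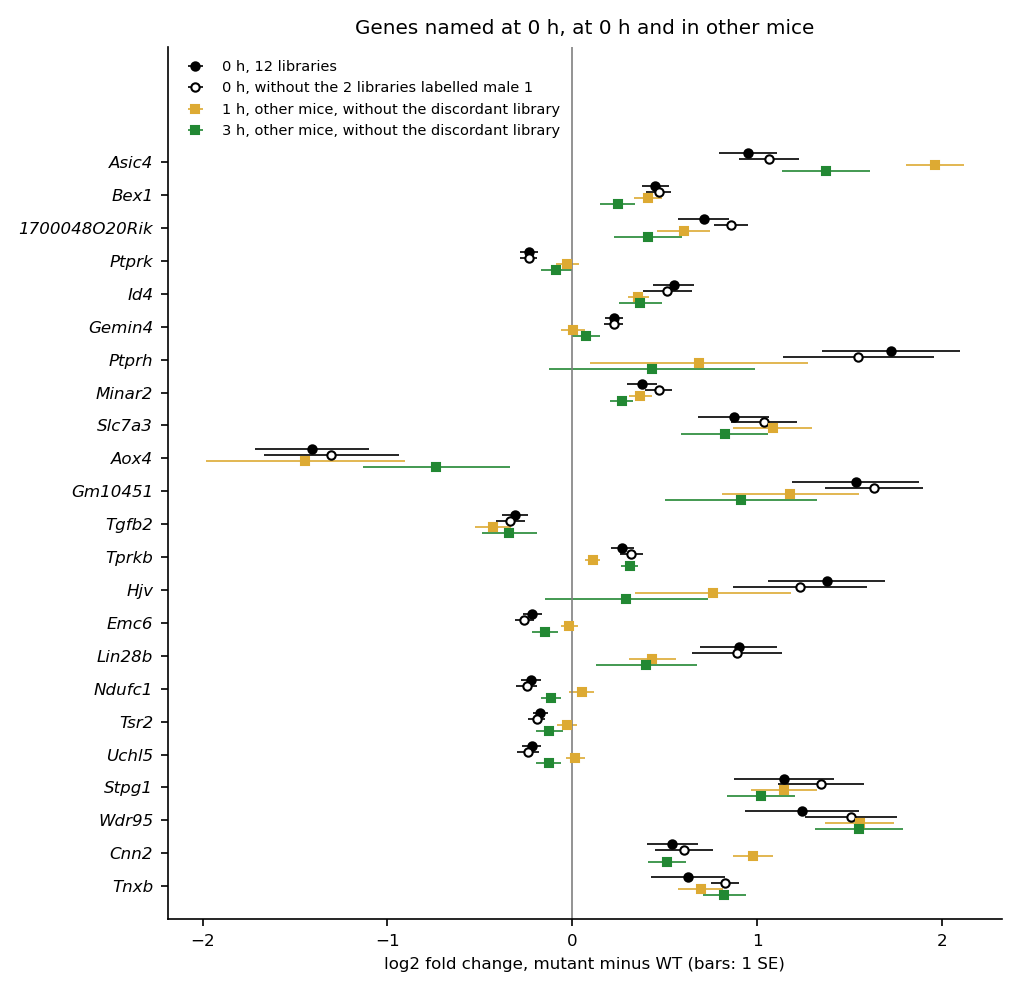
Log2 fold changes, mutant minus WT, (horizontal axis, bars 1 SE) for 19 of the 20 genes with the smallest p at 0 h and for Stpg1, Wdr95, Cnn2 and Tnxb. Black points are all 12 naive libraries, open points leave out the libraries labelled male 1, and squares are other mice at 1 h and 3 h without the discordant library. Asic4, Slc7a3, Stpg1 and Wdr95 lie to the right of 0 in every fit, while Ptprk and Gemin4 lie near 0 in the other mice.

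Large fold changes at 0 h were found for genes that followed the 3 mutant libraries high in Zic1. Among genes with an unadjusted p under 0.01 and a mean of at least 1 CPM, the 5 highest were Prdm12, Col6a3, Magel2, Dgkk and Slc10a4. Prdm12, a transcription factor of sensory neurons and hypothalamus, was at 3.54, 8.14 and 3.95 CPM in the libraries labelled male 1, male 3 and female 2, and at 0 to 0.411 CPM in the other 9 (4.45, SE 1.29). Col6a3, a collagen chain, was at 17.2, 27.2 and 24.4 CPM against 1.18 to 4.56 CPM in the others (2.55, SE 0.65). Magel2, an imprinted gene of the hypothalamus, was at 6.18, 7.78 and 7.11 CPM against 0.74 to 1.94 CPM in the others (1.84, SE 0.50). For each of these genes the 3 libraries stood apart from the remaining mutants by more than those differed from WT.

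Without the 3 libraries the log2 fold change of Col6a3 was 0.75, that of Magel2 0.40 and that of Prdm12 1.43. Receptors of the same pattern were Avpr1a, the vasopressin V1a receptor (2.30, SE 0.57), and Adra2b, an alpha-2 adrenergic receptor (3.15, SE 0.75). Without the 3 libraries these were at 0.88 and 1.34. Both were under 4 CPM in every library. At such low levels a fitted fold change depends on the prior count.

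As a list, markers of septum and hypothalamus moved with these libraries. Oxt and Avp of this list did not, at 3.55 and 1.71 with all libraries and at 4.43 and 2.45 without the 3. Of 18 markers matched, 12 were tested and 6 were higher with an unadjusted p under 0.05, and 2 without the 3 libraries. Their summed level was 399.6 CPM in male 3 and 390.5 CPM in female 2, with the library labelled male 1 just below these. It ran from 202.5 to 263.9 CPM over the WT libraries and from 248.3 to 269.0 CPM over the other mutants. Zic1, by which the 3 libraries were singled out, is itself in this list. Part of this sum and of the count of higher markers therefore follows from that choice. The list had a median log2 fold change of 1.00, and of 0.15 without the 3. Isl1, a transcription factor of septum and hypothalamus, was at 2.75, 3.34 and 1.66 CPM in the 3 libraries and at most 0.365 CPM elsewhere. Summed striatal markers were 393.4, 325.3 and 341.5 CPM in the 3 libraries and 263.0 to 308.5 CPM in the other 9. The striatal list had a median log2 fold change of 0.305, and of -0.03 without the 3. Thalamus markers, which also include Zic1, had a median of 0.23, and of 0.01 without the 3. The part of tissue outside the hippocampus in these differences was not tested.

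Of the 14 interneuron markers 9 were higher and 5 lower in mutants, 4 higher and 1 lower with an unadjusted p under 0.05 (against 3.32% and 2.83% of all genes), and without the 3 libraries 2 higher and 2 lower. Gad2, the gene of a GABA-synthesising enzyme, was at 168.0, 182.4 and 193.7 CPM in WT, compared with 193.3, 219.1 and 262.4 CPM in mutants (0.29, SE 0.07), with its 3 highest values in the libraries high in Zic1, and at 0.13 without them. Dlx2 and Slc32a1 went from 0.52 and 0.32 to 0.07 and 0.01. Pvalb, the marker of fast-spiking interneurons, went the other way, at 32.3, 37.7 and 40.8 CPM in WT, compared with 25.8, 29.1 and 37.3 CPM in mutants (-0.29, SE 0.08), and it was at -0.35 without the 3 libraries and -0.39 without the libraries labelled male 1 (edgeR adjusted p 0.0658). Zcchc12, a transcriptional coactivator gene on the X chromosome, was at 69.4, 70.5 and 62.8 CPM in the 3 libraries and at 26.6 to 44.9 CPM in the others. Its log2 fold change was 0.64 (SE 0.17), and 0.23 without the 3 libraries.

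Of the 575 genes higher in mutants with an unadjusted p under 0.05, 234 also had one without the 3 libraries, and of the lower genes 230 did. Without them 3 genes were called. These were Tnxb (0.81, edgeR adjusted p 0.0384), Slc7a3 and Catspere1. Catspere1, a sperm calcium channel subunit gene at chr1:177808419-177962253, split the mutants the other way. It was at 2.09, 2.95 and 3.35 CPM in the 3 libraries, within or near the WT range of 2.67 to 7.08 CPM, and at 0.167, 0.122 and 0.065 CPM in the libraries labelled mutant male 2, female 1 and female 3. The log2 fold change was -1.71 (SE 0.86) with all mutants and -5.28 without the 3 (edgeR adjusted p 0.0217), where the size depends on the prior count. In the other mice it was -0.87 (SE 1.14) at 1 h and -1.11 (SE 1.29) at 3 h. Levels near 0 were found in WT there as well. At 1 h WT ran from 0.112 to 7.33 CPM, compared with 0.019 to 5.95 CPM in mutants. At 3 h WT ran from 0.155 to 6.57 CPM, compared with 0 to 6.06 CPM in mutants.

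**Figure D4:**
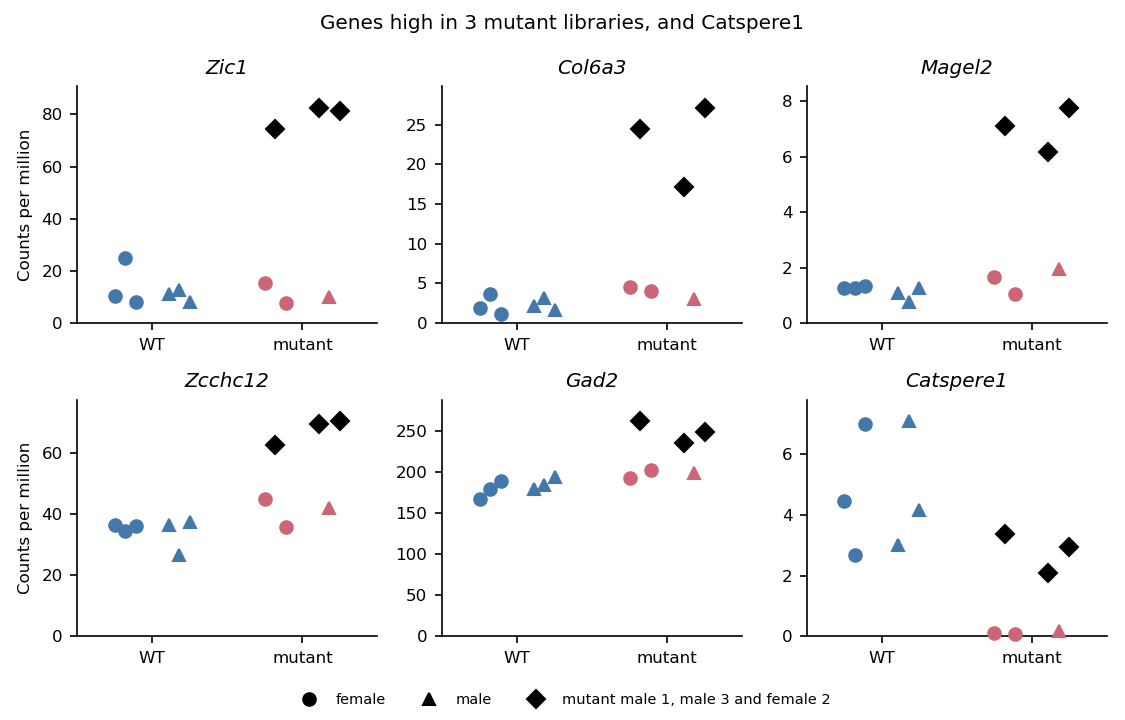
Levels of 6 genes (vertical axes, CPM, starting at 0) in the 12 naive libraries, 1 point per library, with black diamonds for the libraries labelled mutant male 1, male 3 and female 2. Zic1, Col6a3, Magel2 and Zcchc12 are highest in the diamonds, and for Catspere1 the other 3 mutants lie near 0.

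Among genes lower in mutants, the 5 largest changes by the same rule were in Aox4, Tmem37, Tlr2, Tac2 and Loxl1. Tac2, which encodes neurokinin B, was at 1.57, 2.49 and 3.18 CPM in WT, compared with 1.13, 1.34 and 1.97 CPM in mutants (-0.72, SE 0.19). It was at 0.05 at 1 h and -0.46 at 3 h. Tlr2, an innate immune receptor, was at 1.35 to 3.24 CPM in WT, compared with 0.941 to 1.62 CPM in mutants (-0.80, SE 0.24), with the highest WT values in the libraries with most choroid plexus transcripts. Loxl1, an enzyme that crosslinks elastin, was at -0.53 (SE 0.16) and was at -0.55 and -0.45 at 1 h and 3 h. In the neuropeptide list of 31 genes, 4 were higher and 3 were lower with an unadjusted p under 0.05. They include Nts, neurotensin (0.46, SE 0.14), Pnoc, prepronociceptin (0.48, SE 0.14), and Cck, cholecystokinin (-0.23, SE 0.08). Without the 3 libraries high in Zic1 these were at 0.55, 0.20 and -0.20, so most of the difference of Pnoc rested on those libraries.

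Subunits of the mitochondrial respiratory chain encoded in the nucleus were mostly lower in mutants. Of 87 tested, 70 were lower in mutants, by a median log2 fold change of -0.06, and 8 were lower with an unadjusted p under 0.05 (against 2.83% of all genes) and 0 were higher. Ndufc1, of complex I, was at 36.9, 38.2 and 40.3 CPM in WT, compared with 28.9, 33.0 and 36.1 CPM in mutants, without overlap (-0.22, SE 0.05), and its difference was 0.04 at 1 h and -0.11 at 3 h. Sdhc, of complex II, was at 89.4 to 94.6 CPM in WT, compared with 74.0 to 95.7 CPM in mutants (-0.19, SE 0.06), where 5 mutants were below and 1 was above every WT library. Atp5j2, of the ATP synthase, ran from 96.0 to 109.5 CPM in WT, compared with 75.9 to 109.3 CPM in mutants (-0.24, SE 0.07). Cox6b1, of complex IV, was lower (-0.12, SE 0.04).

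The summed level of the subunits was 8415 to 8963 CPM in WT, compared with 7861 to 9128 CPM in mutants, so that the groups overlapped, and its highest value was in the library labelled mutant male 1. Without the libraries labelled male 1, 23 of the subunits were lower with an unadjusted p under 0.05, 0 were higher and the median was -0.09. In the other mice the pattern was seen at 3 h, where 73 of 86 were lower and 9 had an unadjusted p under 0.05, and not at 1 h, where 38 of 86 were lower. The 15 genes of the mitochondrial DNA had a median of 0.01, with 0 passing an unadjusted p of 0.05, and the 85 cytosolic ribosomal protein genes a median of -0.01, with 0 passing. The ribosomal genes were also mostly lower without the libraries labelled male 1, with 26 of 85 higher, 8 lower and 0 higher at an unadjusted p under 0.05, and a median of -0.05. Members of such lists move together and are not independent.

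Of the ER chaperones and genes of the unfolded protein response, 18 of 23 were lower and 4 had an unadjusted p under 0.05 (against 2.83% of all genes), namely Hspa5, the main chaperone of the ER lumen (-0.20, SE 0.08), Atf6 (-0.13, SE 0.05), Calr (-0.12, SE 0.05) and Pdia6 (-0.11, SE 0.05). For Hspa5 no mutant lay below every WT library. The count of 4 was 2 without the libraries labelled male 1 and 7 without the 3 libraries high in Zic1. In the other mice it was 3 at 1 h and 0 at 3 h. Of the sterol synthesis genes 20 of 25 were lower, 3 of them with an unadjusted p under 0.05. Fdps (-0.15, SE 0.06) and Sqle (-0.16, SE 0.07), both enzymes of the pathway, were among them. The sterol count stayed at 3 without the libraries labelled male 1 and was 1 without the 3 libraries high in Zic1. The medians were -0.07 and -0.05 in these fits, against -0.09 with all libraries. At 1 h 18 of 24 sterol genes were higher. At 3 h 16 of 25 were higher, and 8 of 25 without the discordant library. Of the cytosolic heat shock genes 17 of 23 were lower, 1 with an unadjusted p under 0.05.

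Clustered protocadherins, adhesion molecules that give neurons their surface identity, included 7 of 57 that were higher and 3 that were lower with an unadjusted p under 0.05. Their median was 0.04, and ran from -0.01 to 0.06 when single libraries were left out. Among all genes 3.32% were higher and 2.83% lower by this measure, against which the counts of these lists are to be read. The lower ones with the smallest p were Pcdhb5 (-0.43, SE 0.12) and Pcdhga6 (-0.38, SE 0.11), and the higher ones Pcdhga11 (0.29, SE 0.10) and Pcdhb13 (0.23, SE 0.09). Variable exons of neighbouring genes in the gamma cluster are joined to shared exons, and their counts may be split between genes. Of 45 imprinted genes, 9 were higher and 3 lower by this measure, and without the 3 libraries high in Zic1 3 were higher and 5 lower. Of 120 voltage-gated channel genes, 6 were higher and 3 lower, shares near those of all genes. For ionotropic glutamate receptors 1 of 18 was higher (Grin3b, 0.42, SE 0.18), and for GABA receptors 1 of 15 was lower (Gabbr2, -0.11, SE 0.05). Of 23 germline genes tested, 1 was higher (Lin28b) and 1 lower (Brdt, -0.16, SE 0.07).

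**Figure D5:**
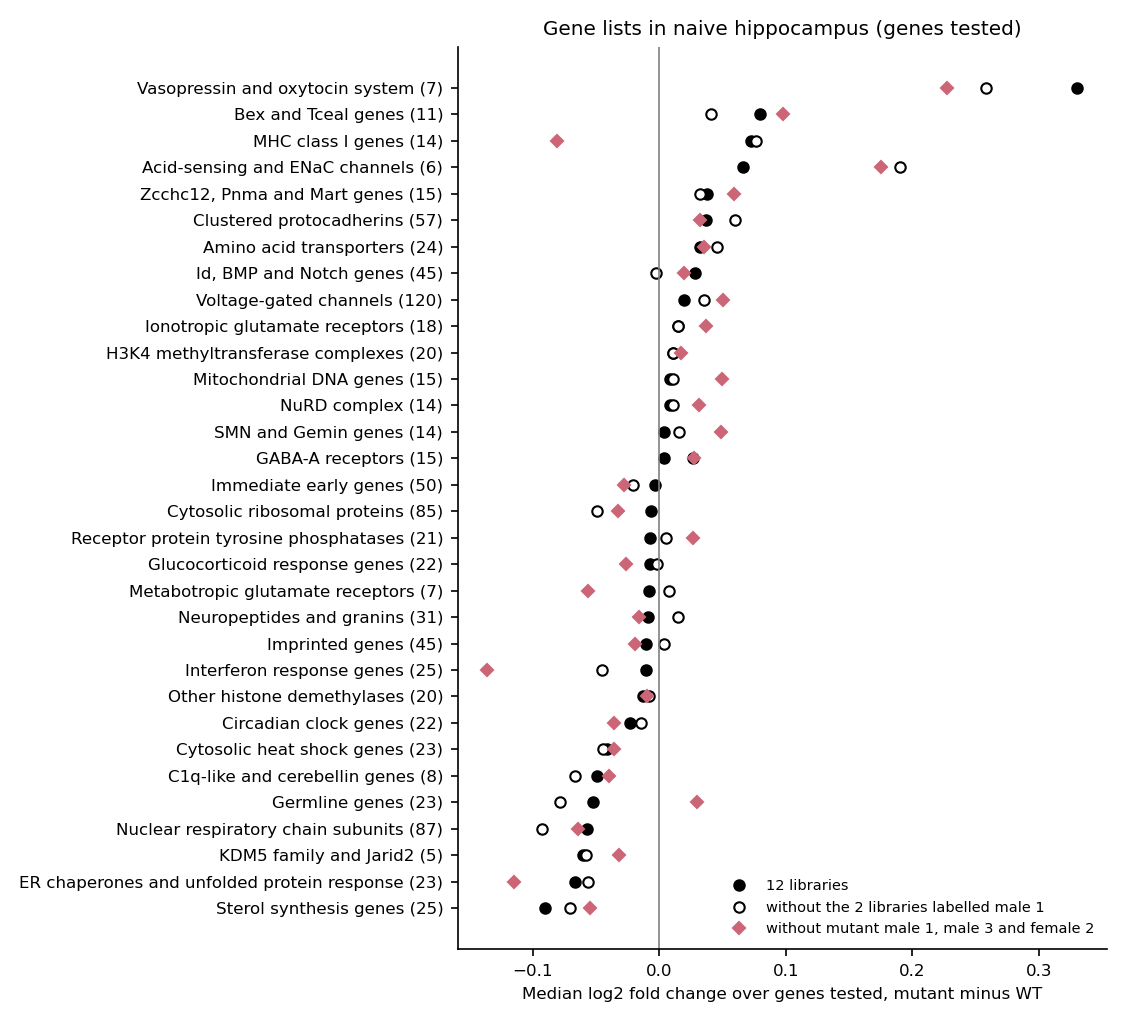
Median log2 fold change, mutant minus WT, (horizontal axis) for each gene list (vertical axis) at 0 h, with black points for all 12 libraries, open points without the libraries labelled male 1 and diamonds without the 3 mutants high in Zic1. Most medians lie within 0.1 of 0. Those of several lists lie below 0 in the 3 fits, among them the respiratory chain subunits, sterol synthesis genes, ER chaperones and cytosolic heat shock genes.

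Immediate early genes, which neuronal activity induces within minutes, were measured here without training. Egr1 was at 128.9, 132.0 and 205.4 CPM in WT, compared with 127.7, 147.6 and 186.7 CPM in mutants, a log2 fold change of 0.00 (SE 0.13). Fos was at 5.20, 9.85 and 21.8 CPM in WT, compared with 6.29, 8.70 and 19.9 CPM in mutants (0.07, SE 0.42). The highest values were in the library labelled WT male 1 for Fos and WT male 2 for Egr1, and among mutants in the library labelled male 1 for both, followed by female 1. The ranges overlapped over nearly their whole length.

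Arc, a synaptic effector gene, was at 92.0, 135.5 and 165.8 CPM in WT, compared with 78.3, 109.0 and 200.6 CPM in mutants (-0.02, SE 0.28). Egr2 had a log2 fold change of -0.04 (SE 0.48) and Npas4, a neuronal transcription factor, of 0.30 (SE 0.21). For Egr1, Egr2, Fos and Arc the sign turned when single libraries were left out, and the SE of Fos and Egr2 is several times the median of all genes, so a moderate difference of Fos or Egr2 was not detectable here. Of the 50 genes of the list, 0 were higher and 1 was lower with an unadjusted p under 0.05 (Spry4, -0.17, SE 0.07), with 24 higher, 26 lower and a median of 0.00. Of 22 glucocorticoid response genes and 22 clock genes, 0 had an unadjusted p under 0.05.

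Cell type markers were measured to describe the tissue. Markers of dentate granule cells summed to 553.5 to 994.3 CPM in WT, compared with 655.2 to 783.8 CPM in mutants, and those of CA1 pyramidal cells to 844.7 to 1442 CPM in WT, compared with 826.8 to 1084 CPM in mutants. All 10 dentate and 9 CA1 markers passed the filter on low counts. All 12 oligodendrocyte markers were higher in mutants, by a median of 0.10, and 0 had an unadjusted p under 0.05. Without the 3 libraries high in Zic1 their median was 0.00. Of the 12 astrocyte markers Gja1, a gap junction protein, was higher (0.15, SE 0.04) and Slc7a10 lower with an unadjusted p under 0.05. Of 12 microglial markers 0 passed in either direction.

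Choroid plexus transcripts varied widely between libraries. The 14 markers summed to between 54.3 and 6105 CPM in WT and between 74.5 and 2750 CPM in mutants. High values above 1000 CPM were found in the libraries labelled WT male 1, male 2, female 1 and female 2 and in the library labelled mutant male 1. All 14 markers were lower in mutants, by a median of -2.14, 1 of them with an unadjusted p under 0.05 (Kl, -1.41, SE 0.57). Leaving out single libraries moved the median between -3.64 (without the library labelled mutant male 1) and -1.34 (without WT female 2). Without the libraries labelled male 1 the median was -3.21 and 11 of the 14 were lower with an unadjusted p under 0.05. At 1 h 8 of 14 were lower by this measure, and 14 of 14 without the discordant library, and at 3 h 0 of 14 in either fit. At 3 h all 14 were still lower, by a median of -0.66, and of -1.81 without the discordant library. The genes that DESeq2 called as lower at 0 h without the libraries labelled male 1 include Ttr (-4.04), which encodes transthyretin, Folr1 (-3.39), Aqp1 (-3.61) and Cldn2 (-3.67). Igf2, a growth factor from the list of meningeal markers, was at -1.35 (SE 0.54). The part of the choroid plexus in other differences was not tested.

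The position of Kdm5b on chromosome 1 matters for this cross. The mutant allele came from the C57BL/6J grandsires, so homozygous F2 mice carry linked chromosome 1 sequence from that side of the cross, and a change caused by the deletion cannot be told apart from one caused by linked sequence. Of 996 genes tested on chromosome 1, 97 had an unadjusted p under 0.05 (9.74%), against 5.93% of the genes on other chromosomes. Without the libraries labelled male 1 the shares were 15.6% and 8.35%. At 1 h they were 14.7% and 8.24%, and at 3 h 10% and 6.14%. Chromosome 1, with 996 of the 17336 genes tested, held 16 of the 64 genes that kept 1 direction with an unadjusted p under 0.05 at all 3 times.

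Along the chromosome the share was 10.3% of 223 genes within 25 Mb of Kdm5b and 11.5% of 321 genes at 25 to 50 Mb. It was 7.98% at 50 to 75 Mb and 7.98% at 75 to 140 Mb. Asic4, Resp18 and Utp14b lie at 75 to 79 Mb of the chromosome. Resp18, a secretory granule protein gene, was higher by 0.48 (SE 0.14), and Utp14b, which overlaps Acsl3 on the same strand, ran from 5.27 to 9.82 CPM in WT, compared with 6.97 to 12 CPM in mutants (0.51, SE 0.16). Among the 5 genes within 25 Mb of Kdm5b with the smallest p were Ren1, renin, at 0.302 to 0.625 CPM in WT, compared with 0.090 to 0.350 CPM in mutants (-1.13, SE 0.35, and -0.70 without the 3 libraries high in Zic1), and Ppp1r12b, a myosin phosphatase subunit, at 41.1 to 45.9 CPM in WT, compared with 37.1 to 43.3 CPM in mutants (-0.13, SE 0.04). Inbred mouse strains differ in the number of renin genes, and their reads may be assigned to Ren1. On the X chromosome, 39 of 603 genes were higher and 12 were lower with an unadjusted p under 0.05 (8.46% together).

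The genotype difference was also compared between the sexes. With edgeR 0 of 17336 genes were called for the interaction of genotype and sex, and 551 had an unadjusted p under 0.05. The smallest p belonged to Lrtm1, a leucine-rich repeat membrane protein gene that was higher in mutant females (1.25) and lower in mutant males (-1.05), at under 1 CPM in every library (edgeR adjusted p of the interaction 1.00). Nr4a2, an activity-dependent nuclear receptor, was at 0.15 in females and -0.58 in males. Gm4013 was at -1.58 in females and 0.47 in males. With 3 libraries per sex and genotype, and the libraries labelled male 1 among the males, these values rest on few mice.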

How the data were processed

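The deposited files hold raw counts per gene for single libraries of poly-A RNA from dorsal hippocampus, sequenced as paired 150-base reads. Per the labels, the authors aligned reads with STAR 2.7.8a to mm10 and counted them with featureCounts 2.0.1. The annotation, strand setting and treatment of multi-mapping reads were not given in the sources used here. Of 27179 genes per file, 25275 were named from RefSeq (GRCm38.p6), and the other 1904 held 1.28% of the counts. Groups follow the labels.

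From the counts, genes were kept with filterByExpr (minimum count 10), scaled by TMM and tested with edgeR 4.0.16 (quasi-likelihood F-test, robust, limma 3.58.1, R 4.3.3) with sex as a covariate and Benjamini-Hochberg adjustment over all genes tested. DESeq2 1.42.0 was an alternative. Printed CPM use TMM-scaled library sizes. The tests were tested on simulated data. Tables and figures used Python 3.11.15, NumPy 2.4.6, pandas 2.3.3 and Matplotlib 3.10.9.

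Members and lists were chosen with earlier results of these data known. Genes were named by rule: Kdm5b, the KDM5 family, the 20 with the smallest p, genes called by edgeR or DESeq2, the 5 largest changes in each direction (unadjusted p under 0.01, mean CPM at least 1), the 4 list members with the smallest p, 5 immediate early genes, genes within 25 Mb of Kdm5b and the 3 with the smallest interaction p. Zic1, Isl1, Zcchc12, Catspere1 and genes taken from the other mice were chosen after their values were seen. Total counts per library at 0 h ran from 40274435 to 78675309, and genes with low counts have the largest error. A few genes that the rule names are not reported here.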

Additional observations from a re-analysis of the deposited data

Results flagged for a closer look

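Among the levels of the named genes in groups of 6 naive libraries, 84 groups were searched for a library far from the others, and 4 were found. Chance alone gives about 1 in 20 groups. Bex1 was at 35.5 CPM in WT male 3, where the next WT library was at 30.1 CPM. Tprkb was at 97.8 CPM in mutant male 3, with the next mutant at 83.8 CPM. Emc6 was at 30.4 CPM in the library labelled mutant male 1, with the next mutant at 27.4 CPM. Npas4 was at 15.8 CPM in mutant female 1, with the next mutant at 9.24 CPM.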

How the results depend on the processing

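With all 12 libraries edgeR called 0 genes at 0 h (6.15% of genes had an unadjusted p under 0.05). The count was 16 with DESeq2 and sex, 23 with DESeq2 without a covariate, and 0 to 5 when single libraries were left out, with 5 without the library labelled mutant male 1 (1700048O20Rik, Tnxb, Bex1, Sdhc and Asic4). Settings added after the data had been seen gave 3 without the 3 mutants high in Zic1, 3 without the libraries labelled male 1, 4 without both sets, and 170 with DESeq2 without the libraries labelled male 1. For genotype by sex the fits without single libraries gave 0 to 1 (1 without WT male 3). At 1 h the count of 0 became 41 without the discordant library and 99 with DESeq2, and at 3 h the count of 2 became 18 and 50. Why these counts differ was not tested.

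Of the 20 genes with the smallest p, 0 changed direction at 0 h under any of these settings. The log2 fold change of Egr1 at 0 h was -0.0136 with DESeq2 without a covariate, -0.0145 without the sex covariate, -0.0133 with all 36 libraries in 1 fit and -0.0236 without the 3 mutants high in Zic1. Egr2 was at 0.0186 without both sets, and Emc6 at 1 h at -0.0169 without the discordant library. Without single libraries the values ran from -0.0671 to 0.0775 for Egr1, -0.34 to 0.22 for Egr2, -0.20 to 0.36 for Fos, -0.21 to 0.10 for Arc and -0.00399 to 0.0418 for Kdm5a. Those of Npas4 stayed above 0, at 0.11 to 0.40. Of 1165 list medians, 6 moved by more than the spread between libraries.

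Same-numbered libraries of the same sex correlated in their deviations by 0.25, -0.14 and 0.15 for males 1 to 3 and by 0.15, 0.21 and 0.07 for females 1 to 3. Of the 6 correlations 4 are above 0.1, so a pairing of the mice by number was not established, and no label states one. With sex and number as a replicate block 0 genes were called and 1248 had an unadjusted p under 0.05. Genes under 1 CPM have few counts, and their fold changes are the least certain.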
